A study of Mus musculus with 2 samples.

Results

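The trypsinogen genes of the mouse were examined in the pancreas, as 8 genes of the 43346 gene rows in the deposited tables. They were chosen by symbol, as Prss1, Prss2, Prss3, Try4, Try5, Try10, 2210010C04Rik and Gm5771 in a GRCm38 annotation. All 8 were found and had counts in both libraries. The study sequenced the polyadenylated RNA of a pancreas, taken from 1 female C57BL/6J mouse aged 10 weeks, an adult of the reference inbred strain; the labels give no treatment and no altered allele. The labels name 2 technical replicate libraries of that 1 biological sample. Replicate 2, made in 2015, had 9797569 expected counts and replicate 1 had 9441559, an expected count being a read count in which reads that match several genes are divided among them. The libraries form 1 group, so the data hold levels and the spread between libraries, but no comparison of conditions and no spread between animals. Levels are deposited TPM, which divides counts by transcript length and scales every library to the same total, and an SD over n = 2 libraries is technical.

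Trypsinogens are the inactive precursors of trypsin, made by acinar cells of the exocrine pancreas and secreted into the gut. There enteropeptidase cuts each precursor after a lysine that follows a run of aspartates, and the trypsin so formed activates the other digestive proenzymes. Early activation inside the pancreas is a known step in pancreatitis, and the acinar cell holds an inhibitor, Spink1, against it. In the mouse the genes lie among the segments of the T cell receptor beta locus.

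The coding sequence around the activation site is shown because it marks each precursor as a trypsinogen and separates 2 members from the rest. Each 36-base window below is the annotated mouse reference sequence on chromosome 6, written 5′ to 3′ along the coding strand. Capitals mark the aspartate codons and the lysine codon after which enteropeptidase cuts.
Prss2: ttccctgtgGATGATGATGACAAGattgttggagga
Try4: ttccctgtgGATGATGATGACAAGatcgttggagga
Try5: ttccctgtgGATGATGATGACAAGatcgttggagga
Prss3: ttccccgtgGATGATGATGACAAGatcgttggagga
Try10: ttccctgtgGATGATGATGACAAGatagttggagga
Prss1: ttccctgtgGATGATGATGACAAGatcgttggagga
Gm5771: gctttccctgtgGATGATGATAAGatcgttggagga
2210010C04Rik: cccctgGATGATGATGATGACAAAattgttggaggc

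In 6 members 4 aspartate codons stood before the lysine codon. Gm5771 had 3, and 2210010C04Rik had 5 and was alone in ending the run with an AAA lysine codon. All 8 genes had 5 coding exons and encoded proteins of 246 residues, except 2210010C04Rik with 247 and Gm5771 with 245. Counting lysine and arginine as positive and aspartate and glutamate as negative, the mature enzyme of 2210010C04Rik had a net charge of 6. The other 7 had net charges of -1 (Try10), -2 (Try4), -3 (Try5), -4 (Gm5771), -5 (Prss3), -6 (Prss1) and -10 (Prss2). This charge is the property behind the usual division into cationic and anionic trypsinogens, in which 2210010C04Rik is the cationic form.

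Prss2, Try4, 2210010C04Rik and Try5 together held nearly all trypsinogen RNA, 98.51% of the family TPM in replicate 2 and 99.01% in replicate 1. Summed over the 8 genes, trypsinogen transcripts stood at 43497 TPM in replicate 2 and 38943 TPM in replicate 1. That is 4.35% of all TPM in replicate 2 and 3.89% in replicate 1, a mean of 4.12 ± 0.322% (SD, n = 2). The libraries differ in what else they hold: genes of chromosome M took 3.17% of counts in replicate 2 and 17.6% in replicate 1, and the noncoding gene Gm42418 took 42.8% in replicate 2 and 16.9% in replicate 1. With Gm42418, Gm26917, Lars2 and all mitochondrial genes and their nuclear copies left out of the total, the family share was 7.78% in replicate 2 and 7.28% in replicate 1.

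Prss2, an anionic trypsinogen, had 14896 TPM in replicate 2 and 10787 TPM in replicate 1, a mean of 12841 ± 2906 (SD, n = 2). It ranked 13 among all genes in replicate 2 and 33 in replicate 1. Try4 had 13911 TPM in replicate 2 and 9604 TPM in replicate 1, a mean of 11757 ± 3046. It stood just under Prss2 in each library, at 0.934 of its TPM in replicate 2 and 0.890 in replicate 1. Try5, the nearest relative of Try4, had 6380 TPM in replicate 2 and 4522 TPM in replicate 1, which is 0.428 of Prss2 in replicate 2 and 0.419 in replicate 1. These 3 genes kept nearly constant proportions to each other although each was higher in replicate 2.

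2210010C04Rik, the cationic trypsinogen, had the opposite order. It had 7662 TPM in replicate 2 and 13643 TPM in replicate 1, a mean of 10652 ± 4230 (SD, n = 2). Against Prss2 this was a ratio of 0.514 in replicate 2 and 1.26 in replicate 1. It was therefore the third member in replicate 2 and the first in replicate 1, and the ranges of Prss2, Try4 and 2210010C04Rik over the libraries overlap. By the spread of each gene over the libraries these 3 were not separated, while within each library Try4 lay below Prss2, at a mean ratio of 0.912 ± 0.0308 (SD, n = 2). Try5 lay below all 3 in both libraries, and the highest of the remaining members was more than an order of magnitude lower.

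Among the low members, Prss3 had 293 TPM in replicate 2 and 170 TPM in replicate 1, and Try10 had 279 TPM in replicate 2 and 166 TPM in replicate 1. Prss3 exceeded Try10 by only 1.05 times in replicate 2 and 1.02 times in replicate 1, against a spread between libraries of 87.4 TPM (SD) for Prss3 and 80.0 TPM for Try10, so these 2 members did not differ beyond their spread over the libraries. Within each library Prss3 was the higher by TPM, at a mean ratio of 1.04 ± 0.0204 (SD, n = 2). By expected counts Try10 was the higher, with 1487 against 1477 in replicate 2 and 1012 against 976 in replicate 1. The annotated transcripts differ in length, with 822 bases for Prss3 and 860 for Try10. Gm5771 had 68.9 TPM in replicate 2 and 47.2 TPM in replicate 1. Prss1, which carries in the mouse the symbol of the human cationic trypsinogen gene, was the lowest, with 8.04 TPM in replicate 2 and 3.61 TPM in replicate 1. These rest on 39.5 expected counts in replicate 2 and 20.2 in replicate 1. From Prss3 down, the order of the members by TPM was the same in both libraries.

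**Figure D1:**
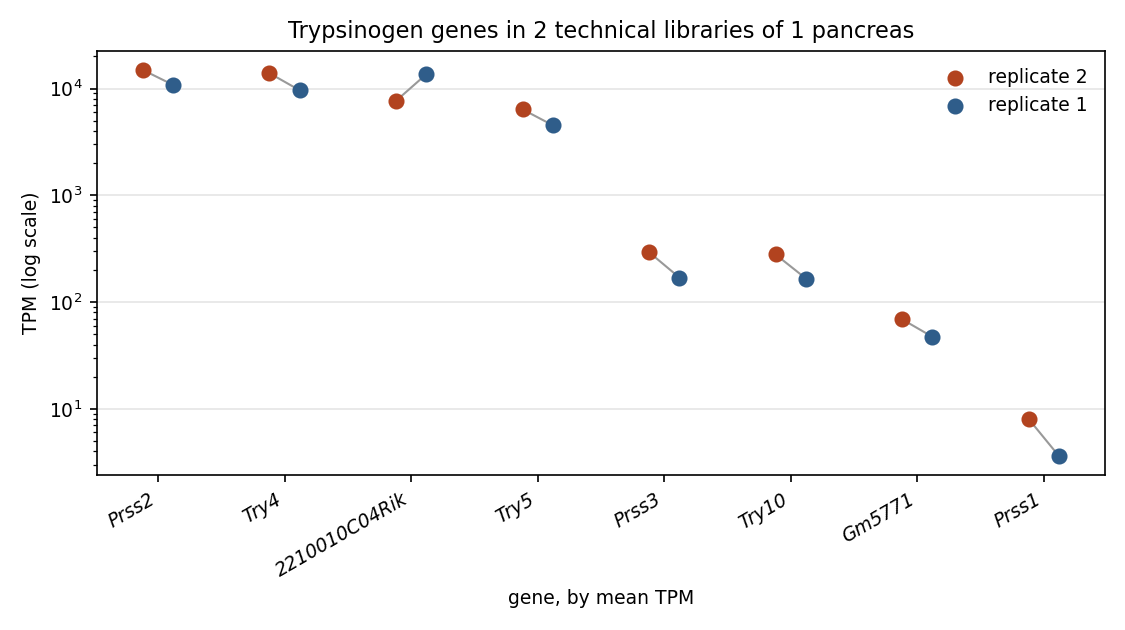
TPM of each trypsinogen gene on a log axis, with replicate 2 left of replicate 1 and a grey line joining the libraries. The 4 abundant members lie between 4522 and 14896 TPM, and 2210010C04Rik alone has its lower point in replicate 2.

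Composition within the family moved with the library and with the unit. On the TPM scale 2210010C04Rik held 17.6% of the family in replicate 2 and 35.0% in replicate 1 and was the only abundant member with the smaller share in replicate 2. Prss2 held 34.2% in replicate 2 and 27.7% in replicate 1, Try4 held 32.0% in replicate 2 and 24.7% in replicate 1, and Try5 held 14.7% in replicate 2 and 11.6% in replicate 1. On the count scale 2210010C04Rik held 39.4% in replicate 2 and 62.3% in replicate 1, and was first in both. Its annotated transcript is 2142 bases long, with 1367 bases after the stop codon, whereas the other members have 798 to 860 bases and at most 57 after the stop codon. TPM divides by that length. Divided by coding bases alone, a setting chosen after seeing the data, its share was 39.3% in replicate 2 and 62.2% in replicate 1. Coding lengths of the members run only from 735 to 741 bases, so this setting nearly returns the count share and is no separate estimate. It also keeps any reads from after the stop codon in the count. The reads behind each part of the transcript were not analysed here.

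**Figure D2:**
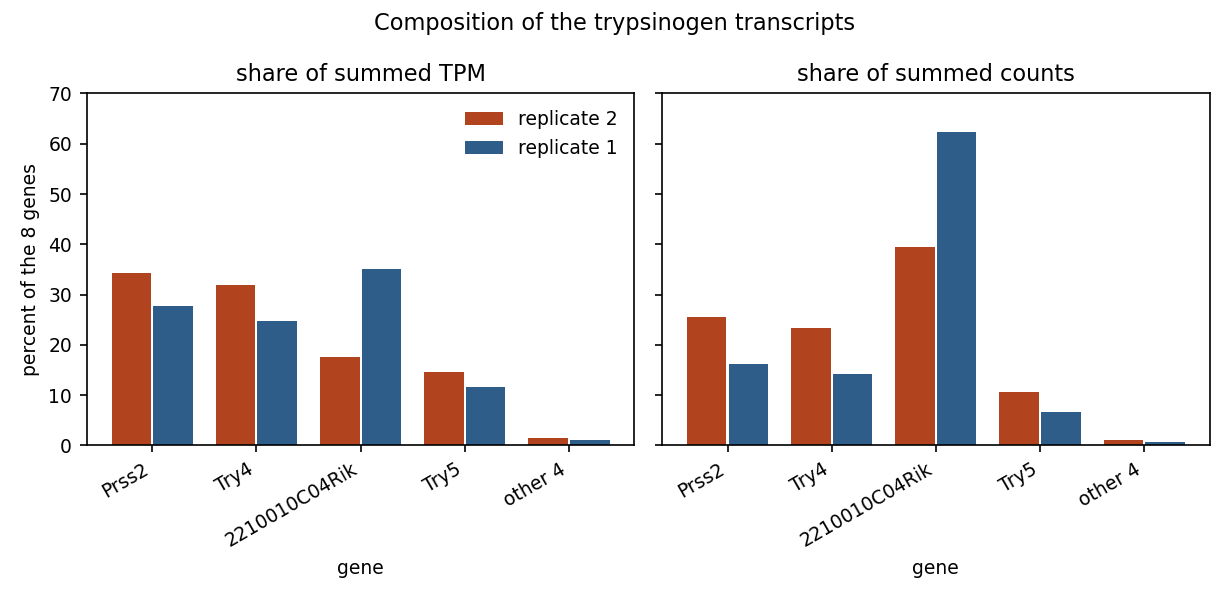
Percent of the summed TPM (left) and of the summed expected counts (right) of the 8 genes, with replicate 2 left of replicate 1. 2210010C04Rik holds 17.6% by TPM and 39.4% by counts in replicate 2, against 35.0% and 62.3% in replicate 1.

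The libraries differed in their trypsinogen counts beyond counting error. After TMM scaling, which sets the libraries to a common centre of gene ratios, 3 of 8 members were called higher in replicate 2 and none lower. Over all 12452 genes tested, 8.31% were called higher and 4% lower. A call needed a log2 ratio of at least 1 in either direction and, in the exact binomial test with Benjamini-Hochberg adjustment, an adjusted p below 0.05. The 3 members were Prss3 at 1.08 (95% interval 0.96 to 1.20), Try10 at 1.04 (0.92 to 1.15) and Prss1 at 1.46 (0.67 to 2.33), as log2 ratios of replicate 2 over replicate 1. Their adjusted p-values in the exact binomial test were 1.88e-73, 3.13e-69 and 0.000676. The intervals of all 3 reach below 1, so each lies within counting error of the fold threshold.

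The other members had log2 ratios under 1 in size. The log2 ratio of replicate 2 over replicate 1 was 0.76 (95% interval 0.74 to 0.77) for Prss2, 0.82 (0.81 to 0.84) for Try4 and 0.79 (0.76 to 0.81) for Try5. For Gm5771, with far fewer counts, it was 0.84 with an interval of 0.60 to 1.08 that reaches past the threshold. For 2210010C04Rik it was -0.56 (-0.57 to -0.55). The median over the members was 0.83, beside -0.01 over all tested genes. The log2 ratios of all tested genes had an SD of 0.797. Among them 2210010C04Rik sat at percentile 17.7 of the tested genes while the other 7 sat between percentiles 85.2 and 96.5. The 52 tested genes with the highest mean counts spread more widely, with an SD of 1.45 and quartiles of -1.06 and 0.57. Within this set 2210010C04Rik lay between the quartiles. Prss2, Try4 and Try5 lay above the upper quartile and below the 95th percentile of 1.48. Prss3 and Try10 lay above the 95th percentile, 0.94, of the 1123 tested genes in their range of mean counts. The test sets 1 library against the other and knows no error but that of counting. At a dispersion of 0.1, assumed in an edgeR exact test, which allows for more than counting error, no member was called, beside 0.249% of genes called higher and 0.112% lower.

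Scaling decides the size and in part the sign of these differences. With library totals in place of TMM, every log2 ratio is lower by 0.54, no member was called higher (2.75% of all tested genes were) and 2210010C04Rik was called lower at -1.09 (20.9% of all tested genes were). Summed over the family, the log2 ratio of replicate 2 over replicate 1 was 0.11 with TMM and -0.43 with library totals; for the 7 members other than 2210010C04Rik it was 0.79 and 0.26. Removal of a trend of the ratios on GC content and transcript length, added after seeing the data, left Prss1 as the only member called, at 1.27, with 4.15% of tested genes called higher and 3.8% lower. The GC content of the transcript was 43.7% for 2210010C04Rik and 51.8 to 54.3% for the other 7, and its part in the difference was not otherwise tested.

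The contrast between 2210010C04Rik and the other members holds under any scaling, because a common factor cancels when log2 ratios are subtracted. The 7 others exceeded it by 1.31 (Prss2, 95% interval 1.29 to 1.33) to 2.00 (Prss1, 1.23 to 2.78) in the log2 ratio of replicate 2 over replicate 1. With the trend on GC and length removed, these differences were between 0.87 for Prss2 and 1.56 for Prss1. Both libraries come from the same pancreas, so this is a difference between technical replicates.

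**Figure D3:**
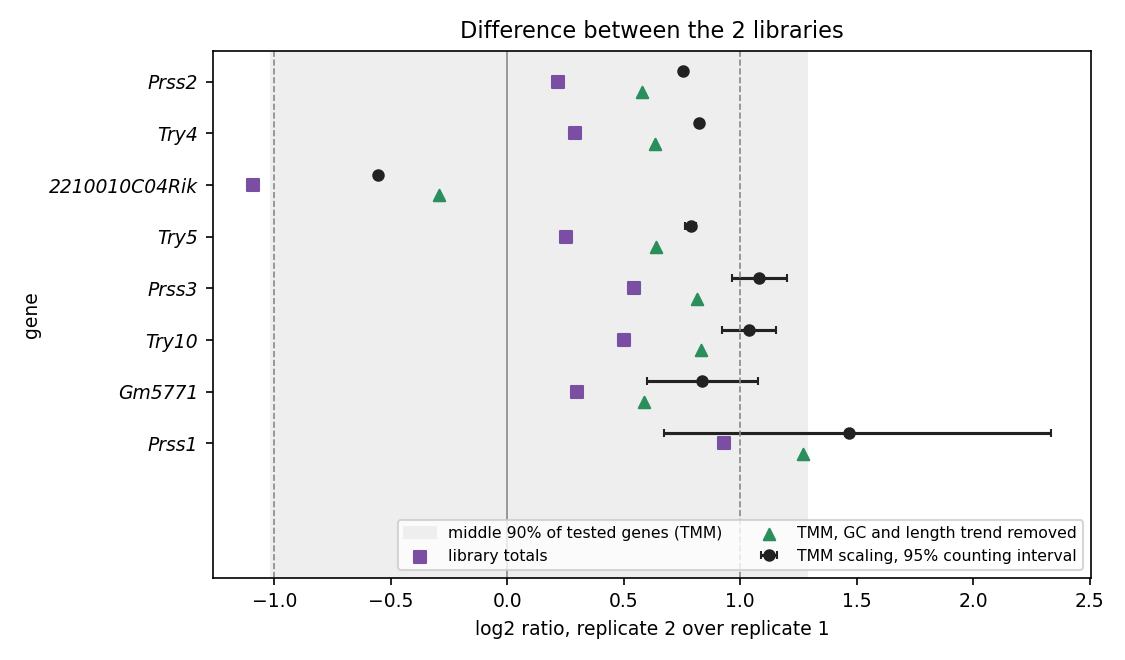
Log2 ratio of replicate 2 over replicate 1 for each member under TMM scaling (circles, bars are 95% counting intervals), library totals (squares) and TMM with the GC and length trend removed (triangles); dashed lines mark -1 and 1 and the grey band spans the middle 90% of tested genes under TMM. 2210010C04Rik lies left of 0 under all 3 settings and the other 7 lie right of it.

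The members differ in how far a read can tell them from their relatives. Coding identity was 97.4% between Try4 and Try5, 97.6% between Prss1 and Gm5771 and 96.3% between Prss1 and Prss3. Prss2 shared 88.5 to 91.7% with the members other than 2210010C04Rik, and 2210010C04Rik shared 74.5 to 75.8% with the other 7. All 100-base fragments of Prss2 and of 2210010C04Rik occurred in no other annotated gene, and no 50-base stretch of 2210010C04Rik occurred elsewhere. The share of such fragments was 88.4% for Try10, 78.2% for Prss1, 74.5% for Gm5771, 74.4% for Try5, 69.8% for Try4 and 55.0% for Prss3. No source used here gives the read length; with 50-base fragments the share was 34.4% for Try4 and 33.9% for Prss3.

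The deposited posterior SD of the count, which measures the doubt in dividing shared reads, was 0 for Prss2 and 2210010C04Rik in both libraries. For Try4 it was 68.1 of 67899 counts in replicate 2 and 68.5 of 53558 counts in replicate 1, and for Try5 67.9 of 31139 counts in replicate 2 and 68.4 of 25221 counts in replicate 1. The doubt was thus small beside the difference between libraries for these abundant genes. For Prss1 it was 1.6 of 39.5 counts in replicate 2 and 0.49 of 20.2 counts in replicate 1. Try5 alone had 2 annotated transcripts, of 801 and 791 bases, and the longer held 100% of its TPM in replicate 2 and 99.98% in replicate 1.

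Prss3 has a near-identical relative in the locus outside the members. Gm10334 shared 99.1% of its coding sequence with Prss3 and had 87.5 TPM in replicate 2 and 120 TPM in replicate 1. Its TPM was 0.299 of that of Prss3 in replicate 2 and 0.708 in replicate 1, and its log2 ratio was -0.17, which was not called. With the counts of both genes summed, 1954 in replicate 2 and 1725 in replicate 1, the log2 ratio was 0.66 and Prss3 lost its call. The posterior SD of Prss3 was 12.7 of 1477 counts (0.859%) in replicate 2 and 14.7 of 976 counts (1.51%) in replicate 1. With this SD added, the 95% interval of its difference from 2210010C04Rik in log2 ratio was 1.51 to 1.76, and without it 1.52 to 1.75. Its annotated transcript also ends at the stop codon, with 0 bases after it.

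**Figure D4:**
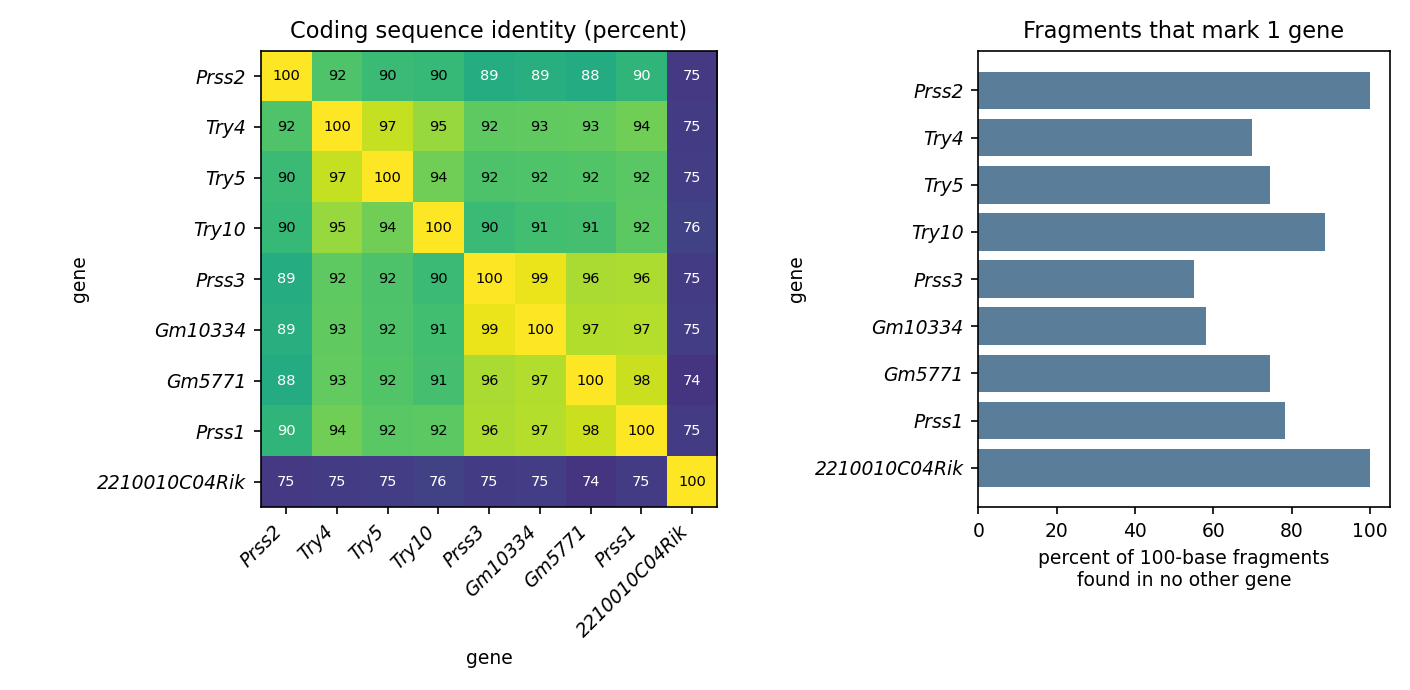
Left, percent identity of the coding sequences of the 8 members and Gm10334; right, percent of the 100-base fragments of each transcript that occur in no other annotated gene. 2210010C04Rik stands apart at 74.5 to 75.8% from the other members, and Prss3 has the lowest share of unique fragments at 55.0%.

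The members span 494.8 kb of chromosome 6 in mm10, chr6:41030268-41525079, with 5 on the plus and 3 on the minus strand. 2210010C04Rik (chr6:41030268-41035509, minus strand) lies at 1 end, 266.8 kb from Try4 (chr6:41302269-41305532, plus strand). Try5 (chr6:41311233-41316841, minus strand) follows Try4 after 5.7 kb, the shortest gap between members. Try10 (chr6:41354105-41357914, plus strand), Prss3 (chr6:41373814-41377678, minus strand), Gm5771 (chr6:41392356-41397230, plus strand) and Prss1 (chr6:41458932-41463786, plus strand) lie between them and Prss2. Prss2 (chr6:41521787-41525079, plus strand) closes the span, 58.0 kb from Prss1.

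The rest of the locus was close to silent in this tissue. The span holds 43 other annotated genes, of which 32 are T cell receptor segments, and none of these segments reached 1 TPM in either library. The highest stood at 0.71 TPM, and 30 had a count of 0 in both libraries. The 6 T cell markers on the list, among them the receptor constant gene Trbc1, summed to 3.26 TPM in replicate 2 and 1.8 TPM in replicate 1. The 8 pseudogenes that are not receptor segments reached at most 0.6 TPM. Gm10334 was the only other gene of the span at 1 TPM or more in both libraries. Of the further trypsinogen-like genes, Gm5409 had a count of 0 in both libraries, Gm2663 had 2 counts in replicate 2 and 6.04 in replicate 1, and 1810009J06Rik had 0 in replicate 2 and 1.96 in replicate 1.

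**Figure D5:**
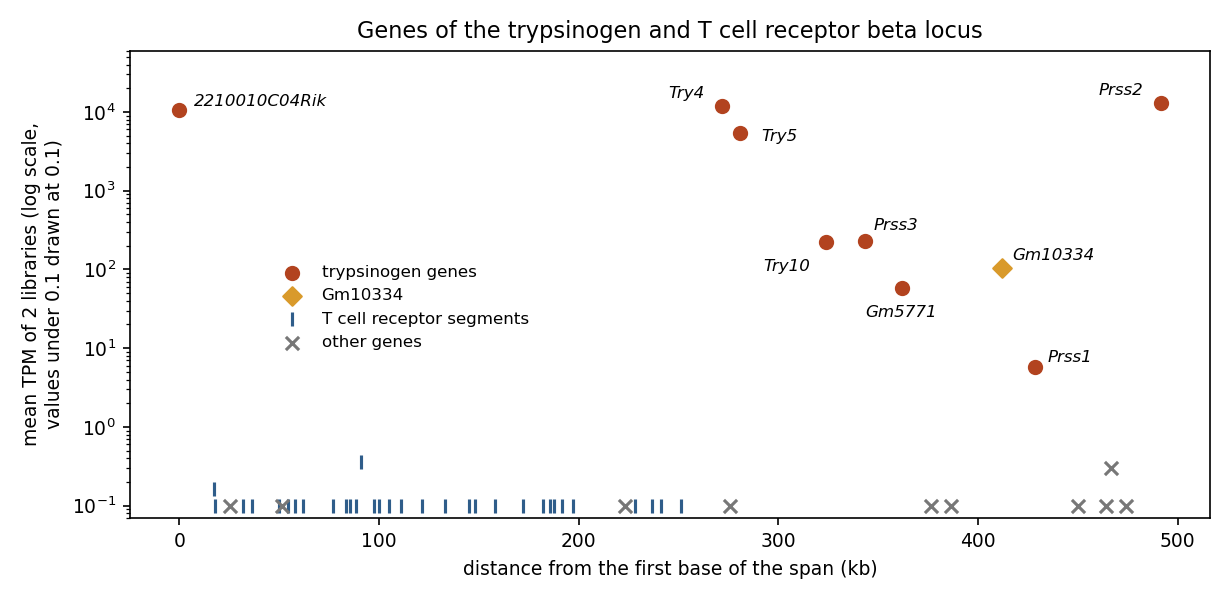
Mean TPM of the 2 libraries on a log axis against distance in kb from the first base of the span, for trypsinogen genes (circles), Gm10334 (diamond), T cell receptor segments (ticks) and other genes (crosses). Abundant members lie at both ends and in the middle of the 494.8 kb, and no T cell receptor segment passes 0.71 TPM in either single library.

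Upstream sequences were set side by side because members that are alike in their coding sequence differ widely in level. RefSeq sequences (GRCm38.p6) were matched for 6 of the 8 members, not for Try5 and Try10. The 120 bases before the RefSeq start are given for 5 of them. Those of Prss3 (minus strand, chr6:41377614-41377733), not printed, hold TATAAA alone of the motifs below. The GENCODE span of Prss3 reaches to 41377678, so part of these 120 bases lies inside that span. This part holds the TATAAA, 28 bases before the RefSeq start. The printed bases run 5′ to 3′ along the coding strand. Capitals mark TATAAA, read on the coding strand, and CACCTG and TTTCCC, read on both strands, so that CAGGTG and GGGAAA are also marked.
Prss2 (plus strand, chr6:41521656-41521775): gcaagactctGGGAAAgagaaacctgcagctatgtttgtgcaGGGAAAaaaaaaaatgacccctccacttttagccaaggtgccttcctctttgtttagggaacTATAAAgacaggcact
Try4 (plus strand, chr6:41302152-41302271): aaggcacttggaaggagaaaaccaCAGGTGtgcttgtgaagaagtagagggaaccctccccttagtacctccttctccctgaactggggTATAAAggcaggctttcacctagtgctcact
Prss1 (plus strand, chr6:41458810-41458929): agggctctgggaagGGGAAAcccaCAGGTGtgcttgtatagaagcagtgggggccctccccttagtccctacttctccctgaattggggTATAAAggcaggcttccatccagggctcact
Gm5771 (plus strand, chr6:41392236-41392355): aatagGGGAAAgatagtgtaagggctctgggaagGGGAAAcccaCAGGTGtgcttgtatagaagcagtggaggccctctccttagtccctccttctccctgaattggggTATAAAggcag
2210010C04Rik (minus strand, chr6:41035510-41035629): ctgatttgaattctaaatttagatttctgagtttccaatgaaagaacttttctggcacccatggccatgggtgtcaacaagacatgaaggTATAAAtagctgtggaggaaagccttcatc

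These are the letters of an E-box, a TC-box and a TATA box. An E-box near a TC-box is the kind of site bound by the acinar complex of Ptf1a and Rbpjl. In the 250 bases upstream, TATAAA and CACCTG each occurred in all 6 matched members, beside 7.59% and 17.2% of the 32851 promoters searched. TTTCCC occurred in Prss1, Prss2 and Gm5771, beside 21.9% of promoters. The spaced pair of CACCTG followed by any 4 bases and TTTCCC occurred in 0.0122% of promoters, which were those of Prss1, Gm5771, the elastase gene Cela1 and Esp18. The motifs were chosen after these sequences had been read, and a match is not a bound site. The matched members with the spaced pair, Prss1 and Gm5771, were the 2 with the lowest levels, and Try5 and Try10 could not be searched. Over the 250 bases Prss1 was 83.7% identical to Gm5771 and 66.1% to Try4, which had 13911 TPM in replicate 2 and 9604 TPM in replicate 1. Each window ended at the RefSeq start of its own gene, and unaligned ends counted as differences. TATAAA began 11 bases before that start in Gm5771 and 31 bases before it in Prss1 and Try4. The windows of Prss1 and Gm5771 are thus offset, and 83.7% understates the identity of the bases they share.

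Genes that guard against or drive trypsinogen activation were taken as a list of 28 symbols, of which 27 were matched and 17 had enough counts to be tested. In replicate 2 against replicate 1, 1 of the 17 was called higher, none was lower and 16 passed in neither direction, beside the 8.31% and 4% over all tested genes. The gene called was Spink1, the trypsin inhibitor of the acinar cell, at 1739 TPM in replicate 2 and 1033 TPM in replicate 1, a log2 ratio of 1.07; with library totals it was 0.54 and not called. The calcium-sensing receptor gene Casr had 12 counts in replicate 2 and 36 counts in replicate 1. With library totals it was called lower at -1.60, and with the trend removed at -1.13; with TMM it was -1.06 and not called. Family TPM was 25.01 times that of Spink1 in replicate 2 and 37.7 times in replicate 1. Ctrc, chymotrypsin C, which degrades trypsinogen in human, had 455 TPM in replicate 2 and 349 TPM in replicate 1, and its annotated span overlaps that of Cela2a on the same strand. The chymotrypsinogen gene Ctrb1 stood at 38071 TPM in replicate 2 and 27460 TPM in replicate 1.

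Lysosomal proteases that can cut trypsinogen were low beside it. Ctsb, cathepsin B, which activates trypsinogen, had 25.9 TPM in replicate 2 and 33.0 TPM in replicate 1, and Ctsl, cathepsin L, which degrades it, had 35.0 TPM in replicate 2 and 40.4 TPM in replicate 1. Tmprss15, the enteropeptidase of the duodenum, had a count of 0 in both libraries, and the 7 intestinal and Paneth cell markers summed to 7.02 TPM in replicate 2 and 7.27 TPM in replicate 1. The trypsin receptor gene F2rl1 had 0.82 TPM in replicate 2 and 1.37 TPM in replicate 1. The liver antitrypsin genes Serpina1a to Serpina1e stood at 0.91 TPM or less. Serpini2, a serpin of the pancreas, had 97.5 TPM in replicate 2 and 129 TPM in replicate 1.

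Other serine proteases of the acinar cell gave a setting for the trypsinogens. Of 7 such genes 3 were called higher in replicate 2 and none lower, beside the 8.31% and 4% over all tested genes. All 3 were elastase genes: Cela1 at a log2 ratio of 1.18, Cela2a at 1.47 and Cela3b at 1.50. With library totals none of the 7 was called, beside 2.75% of tested genes called higher and 20.9% lower. With the trend on GC and length removed, Cela1 at 0.92 and Cela3b at 0.88 were no longer called. The summed level of all 7 genes was 136045 TPM in replicate 2 and 78475 TPM in replicate 1, above the trypsinogen sum in each. Klk1, tissue kallikrein, had 3380 TPM in replicate 2 and 5059 TPM in replicate 1. Its log2 ratio was -0.29, which was not called.

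By level the genes nearest to Prss2 were Zg16, a zymogen granule protein gene, at a distance of 0.15 in log2(TPM + 1) over the 2 libraries, Try4 at 0.19 and the chymotrypsin-like gene Ctrl at 0.30. For Try4 they were Zg16 at 0.18, Prss2 at 0.19 and Ctrl at 0.30. All 11 acinar markers stood at 1 TPM or more in both libraries. The tissue also held islet RNA, with Ins2 at 17977 TPM in replicate 2 and 13969 TPM in replicate 1. The islet markers did not move together between the libraries. Of the 5 on the list, Ppy was called higher in replicate 2 and Gcg lower, beside 8.31% and 4% over all tested genes. Gcg had 1566 TPM in replicate 2 and 4235 TPM in replicate 1. In a bulk sample the number of cells of a type and the RNA per cell cannot be told apart.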

How the data were processed

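Both libraries were analysed from the deposited tables. Per the deposited README files, values rest on build mm10 and GENCODE M4; no source used here names the aligner, quantifier or read length. As the file headers show, the authors deposited expected counts, posterior mean counts with their SD, TPM, FPKM, a posterior mean TPM treated here as a signal, and the percent of each isoform within its gene. FPKM was not used. Rows without a mouse gene identifier numbered 26345, held a count of 0 and were left out. Of the gene identifiers 42462 matched GENCODE M21, which gave symbols, positions and transcript sequences.

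The members and lists were chosen with earlier results of these data known, as were the genes named: the members, their relatives in the locus, genes of trypsinogen activation, other pancreatic serine proteases, and the 3 genes nearest in level to each of the 2 members with the highest mean TPM. Genes outside this rule were named after their values were seen. The planned RefSeq protein table was not used here; proteins were translated from the annotated coding sequence, which gave length, charge and identity.

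Expected counts were rounded and scaled with TMM factors (edgeR 4.0.16, R 4.3.3). A single library per side leaves the quasi-likelihood test of edgeR without residual degrees of freedom. Each gene with a mean of at least 10 counts therefore got an exact binomial test, two-sided, with p-values adjusted by the Benjamini-Hochberg method over all 12452 such genes. Ratios had 0.5 added to both counts, and the 95% intervals of single log2 ratios are exact Clopper-Pearson intervals. Differences from 2210010C04Rik that carry an interval were taken from unrounded counts with nothing added. Their 95% intervals are normal approximations. Apart from the Prss3 interval with the posterior SD added, all these intervals hold counting error alone. They treat every read as independent. PCR copies of a molecule are not independent reads, so the intervals may be too narrow. Upstream sequences came from RefSeq. BLAST+ 2.17.0 gave the nuclear copies of mitochondrial genes, at 95% identity and 90% coverage. Python 3.11.15, Biopython 1.88, DESeq2 1.42.0 and mgcv 1.9.3 were also used.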

Additional observations from a re-analysis of the deposited data

How the results depend on the processing

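The family share of TPM, 4.12% as a mean of the libraries, was 3.77% with the posterior mean TPM, 7.53% without Gm42418, Gm26917, Lars2 and the mitochondrial genes and copies, and 3.89 to 4.35% with either library left out. The family log2 ratio turned to -0.43 with library totals. The number of members called, 3 at first and all higher in replicate 2, was 1 with library totals. That 1 was 2210010C04Rik, called lower, and none of the first 3 was called. With an edgeR exact test at an assumed dispersion of 0.1 the number was 0. It was 1, Prss1, with the GC and length trend removed. Over all genes 1533 were called, and 2945 with library totals, 649 with a minimum of 50 counts, 45 with the dispersion of 0.1 and 979 with the trend removed. Library totals shift every log2 ratio by -0.54 while the threshold stays fixed, and the dispersion of 0.1 allows for more than counting error. The minimum of 50 counts leaves fewer genes to test. What lies behind the change with the trend removed was not tested. With DESeq2 size factors, upper quartile factors, posterior mean counts, a pseudocount of 1 or a dispersion of 0.01, the same 3 members were called, and with the minimum of 50 counts 2, since Prss1 has fewer. Of the log2 ratios of single members under all settings together, 70 stayed on the same side of the call, 9 lost it, 1 gained it and none changed sign. Prss1, with 39.5 and 20.2 counts in replicates 2 and 1, is the member most limited by depth. The GC and length trend, the pseudocount for call counts, the family without 2210010C04Rik, the counts per coding base and the sum with Gm10334 were added after seeing the data. No paired analysis was possible because the libraries form 1 group.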
